A study of Mus musculus with 6 samples.

Results

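The loci of 3 surface receptors of blood progenitors, Kit, Flt3 and Cd34, were examined in a map of H3K79me2, the dimethylated form of lysine 79 of histone H3, in mouse myeloid leukaemia. Regions were taken by position alone, as every peak of the deposited list that overlapped a window set around each gene in the mouse build mm9. The windows were chr5:75969000-76055000 for Kit, chr5:148140000-148214000 for Flt3 and chr1:196763000-196790000 for Cd34. This gave 6 of the 18992 peaks, of which 1 lay at Kit, 4 at Flt3 and 1 at Cd34. The list itself names no genes, and the bounds of the genes within these windows were not checked against an annotation of mm9. The defining markers of the leukaemic blasts could not be checked for the same reason.

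The study compared 3 H3K79me2 libraries with 3 input libraries, which are chromatin sequenced with no antibody step. All 6 came from bone marrow leukaemic blasts of moribund C57BL/6 mice that had received CMP-cells transformed with MN1 (meningioma-1). Every library had the genotype Dot1l f/f, a conditional allele of the H3K79 methyltransferase that had not been inactivated. The antibody was Abcam anti-H3K79me2 (ab3594). The blasts had been kept in culture for a short time in the medium M3234, to which FBS, SCF, Il3 and Il6 were added. SCF is the ligand of Kit. All libraries shared this medium, so what the culture and what the leukaemia contributed cannot be told apart. The peaks were called over combined libraries, so the table used here holds no value per library, the spread between replicates cannot be given for any locus, and no test between samples was run. Neither the age of the mice nor the number of animals is given in the labels.

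Kit and Flt3 are receptor tyrosine kinases of the same class. Kit binds stem cell factor and Flt3 binds FLT3 ligand, and both send growth and survival signals in early haematopoietic cells. Cd34 is a transmembrane sialomucin that carries no kinase and is widely used as a marker of stem and progenitor cells and of endothelium. H3K79me2 is placed by DOT1L on the bodies of transcribed genes and is usually densest towards their 5′ ends. A peak of this mark is therefore commonly read as a sign of transcription, although no RNA was measured here.

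The promoters are shown first, since the 5′ sides of all 3 windows carried the mark. They are RefSeq sequences of GRCm38.p6, a later build than that of the peaks, matched by gene symbol and not by the peaks' coordinates. Each runs from 250 bases before to 50 bases after the annotated start of the gene and is written 5′ to 3′ on the gene's strand. Kit has 2 listed promoters, of which the first is shown, at chr5:75574737-75575036 on the plus strand. The Flt3 promoter is chr5:147400440-147400739 on the minus strand and that of Cd34 is chr1:194938571-194938870 on the plus strand. Capitals mark matches to any of the 12 motifs described next, on either strand.
Kit: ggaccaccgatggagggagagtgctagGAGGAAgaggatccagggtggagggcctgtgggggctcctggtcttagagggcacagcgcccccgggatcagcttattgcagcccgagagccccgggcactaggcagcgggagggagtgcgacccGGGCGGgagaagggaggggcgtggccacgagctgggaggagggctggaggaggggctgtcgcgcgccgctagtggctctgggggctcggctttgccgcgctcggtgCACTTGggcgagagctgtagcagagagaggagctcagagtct
Flt3: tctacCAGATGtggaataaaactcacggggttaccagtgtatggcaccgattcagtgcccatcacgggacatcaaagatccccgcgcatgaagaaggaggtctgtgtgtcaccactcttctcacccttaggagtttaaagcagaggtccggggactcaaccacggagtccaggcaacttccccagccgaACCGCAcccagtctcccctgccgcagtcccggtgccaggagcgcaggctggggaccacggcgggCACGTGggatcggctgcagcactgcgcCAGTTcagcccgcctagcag
Cd34: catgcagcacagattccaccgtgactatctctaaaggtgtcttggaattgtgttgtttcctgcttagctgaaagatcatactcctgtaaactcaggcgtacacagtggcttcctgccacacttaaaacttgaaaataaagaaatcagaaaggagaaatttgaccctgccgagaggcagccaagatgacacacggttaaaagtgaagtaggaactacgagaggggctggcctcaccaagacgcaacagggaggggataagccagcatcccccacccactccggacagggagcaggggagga

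The promoters of Kit and Flt3 held more G and C than the median promoter, and that of Cd34 held slightly less. G and C made up 69.0% of the Kit sequence, 61.0% of the Flt3 sequence and 50.0% of the Cd34 sequence, against a median of 52.7% over 32841 promoters of the same length. Of those promoters 11.1% were as rich as Kit, 26.9% as rich as Flt3 and 60.7% as rich as Cd34. Their quartiles were 45.7% and 61.7% G and C, so only Kit lay above the upper one. CpG dinucleotides stood at 0.62 of the number that base composition would give in Kit, 0.65 in Flt3 and 0.37 in Cd34. The median promoter had 0.38, with quartiles of 0.18 and 0.75. All 3 thus lay between the quartiles, Cd34 close to the median and the 2 kinases above it. The distribution had 2 peaks, at 0.1 to 0.15 (2531 promoters) and, lower, at 0.8 to 0.85 (1365 promoters). All 3 promoters lay between these peaks, so the median is not a typical value.

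Of the 12 motifs, the Kit promoter shown held 3, that of Flt3 held 4 and that of Cd34 held none. No motif was shared by all 3 promoters shown. Kit held GGGCGG, the box bound by Sp1-type factors, at position -98 from the start (35.7% of all promoters hold it), and GAGGAA, a PU.1-type sequence, at position -223 (28.3%). Kit also held 1 match to the E-box CANNTG, at position 9. Flt3 held 2 matches to CANNTG, at positions -245 and 4, and the latter is the form CACGTG known from MYC and its relatives, counted under both motifs. CANNTG occurs in 72.3% of all promoters and CACGTG in 7.15%. Flt3 further held a match to the RUNX-type TGCGGT on the opposite strand at position -61 (6.46%) and one to the MYB-type AACTG on the opposite strand at position 31 (44.8%). Cd34 held none of the 12, which says only that these letters are absent from its 300 bases.

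The motifs with no match in any of the 3 promoters were TATAAA, the TATA box (held by 13.6% of all promoters), the GATA forms AGATAA (11.2%) and also TGATAA (9.05%), the ETS form CCGGAA (14.9%), the RUNX form TGTGGT (16.8%) and the MEIS form TGACAG (19.2%). A match is a description of the letters and does not show that a factor binds.

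**Figure D1:**
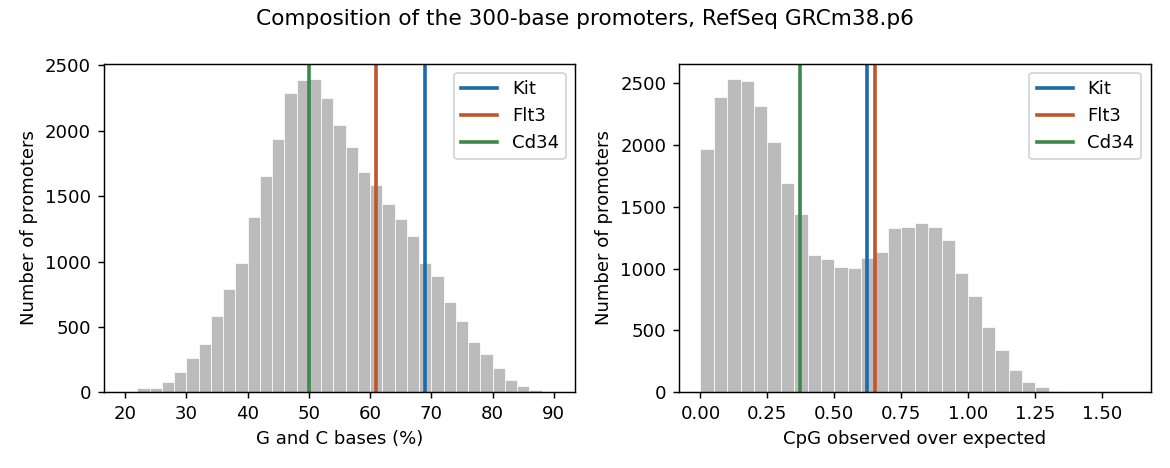
Histograms of 32841 promoters of 300 bases by their share of G and C (left, percent) and by CpG observed over expected (right), with vertical lines at Kit, Flt3 and Cd34. Kit and Flt3 lie right of the medians of 52.7% and 0.38, and Cd34, at 50.0% and 0.37, lies close to them.

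Each of the 3 loci held 1 strong, wide H3K79me2 region, and Flt3 held 3 weaker ones besides. The fold given for a peak is the authors' enrichment of the pooled pileup, the depth of read coverage, over the control background, as the peak caller MACS2 wrote it. The highest folds were 9.14 at Cd34, 6.42 at Kit and 5.38 at Flt3. The median over the whole list was 2.28, with quartiles of 1.91 and 4.57. All 3 strong regions thus lay above the upper quartile, with Cd34 highest. With no replicate spread, whether neighbours in this order differ beyond it cannot be said.

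Of the 6 regions, 3 had a fold of at least 4, against a background of 29.3% of all peaks. The same 3 had a −log10 q of at least 10, where q is the peak caller's adjusted p, against 36.4% of all peaks, and were at least 10 kb wide, against 31.0%. The 3 are the strong regions of Kit, Flt3 and Cd34, 1 to a gene, and the others are the weaker regions of Flt3.

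**Figure D2:**
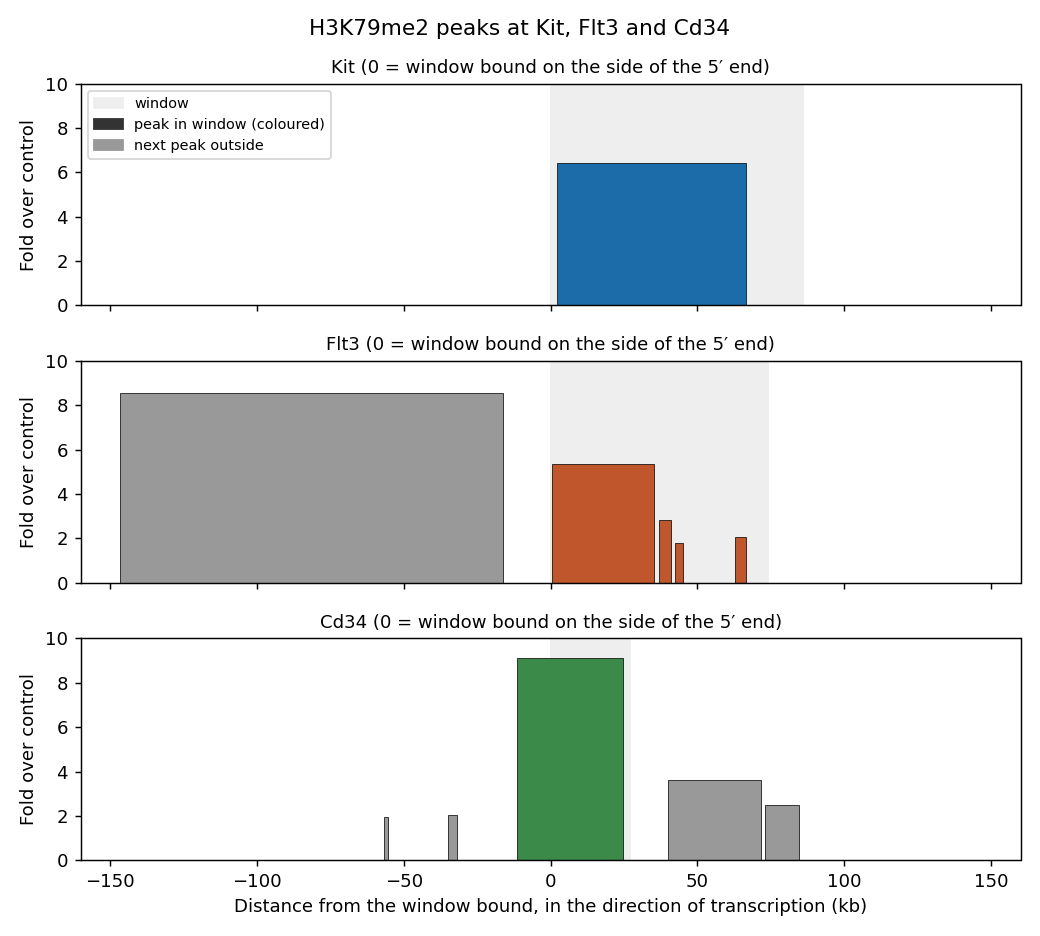
Peaks at each locus by distance from the window bound on the 5′ side (horizontal axis, kb, in the direction of transcription) and fold over the control background (vertical axis); grey shading is the window, coloured bars are the 6 peaks in the windows and grey bars the next peaks outside. The Kit and Flt3 regions of 6.42-fold and 5.38-fold begin close to the 5′ bound, the Cd34 region of 9.14-fold begins before it, and peaks more than 160 kb away, which include those next to Kit, are not drawn.

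Kit was marked by a single region in the list. Whether MACS2 linked neighbouring stretches in its broad mode, and which inputs served as control, are not stated, so the number of pieces called at a locus may depend on the calling. The shortest gap in the list was 1169 bp. The Kit region ran from 75971082 to 76035575 on chromosome 5, a width of 64.5 kb, with a pooled pileup of 76.4, a −log10 q of 41.8 and a fold of 6.42. Only 2.72% of the 18992 peaks were as wide (exact binomial interval 2.49% to 2.96%), whereas 13.3% had a fold as high (12.9% to 13.8%). The width of the region set it apart in the list more than its fold did. Against the 1694 peaks of 0.5 to 2 times its width it stood in the middle, since 48.8% of them had a fold as high and their median was 6.34.

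Kit is transcribed towards higher coordinates, and its region lay on the 5′ side of the window. It began 2.08 kb and ended 66.58 kb from the bound on that side, which left the last 2 of 10 equal bins empty. The 5 bins nearest the 5′ side were 95.2% covered and the other 5 were 54.8% covered. Whether the region begins before or after the transcription start was not determined, because the window bound is not that start.

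Flt3 was marked by 4 regions of unequal strength, and the strongest lay at the 5′ side. The gene is transcribed towards lower coordinates. The strongest region ran from 148178703 to 148213671 on chromosome 5, 0.33 to 35.30 kb from the 5′ bound of the window, and was 35.0 kb wide with a pileup of 66.2, a −log10 q of 31.8 and a fold of 5.38. It made up 77.0% of the covered bases of the window. In the list 19.4% of peaks had a fold as high (18.9% to 20.0%) and 8.19% were as wide (7.80% to 8.59%), and among the 3265 peaks of 0.5 to 2 times its width 54.5% had a fold as high.

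The other 3 regions of the Flt3 window lay further from its 5′ bound and were narrower and weaker than the strongest. The next, 1.67 kb away, ran from 148173125 to 148177031, with a width of 3.91 kb, a pileup of 32.5, a −log10 q of 6.86 and a fold of 2.81. After a gap of 1.44 kb came a region of 2.73 kb from 148168952 to 148171681, with a pileup of 20.5, a −log10 q of 1.35 and a fold of 1.80. This is close to the weakest calls, the lowest −log10 q in the list being 1.02 and the lowest pileup 19.0. The last, from 148147299 to 148151127, lay 17.8 kb further on and 62.87 to 66.70 kb from the 5′ bound, with a width of 3.83 kb, a pileup of 22.7, a −log10 q of 2.40 and a fold of 2.06. The strongest Flt3 region had 1.91 times the fold and 2.03 times the pileup of the next strongest. That next region, at 2.81-fold, still lay above the list median of 2.28, and 40.8% of all peaks had a fold as high. For the regions of 1.80-fold and 2.06-fold these shares were 90.4% and 60.5%.

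The 3 Flt3 regions nearest the 5′ side could be read as a single one. Joined across gaps of at most 3 kb they formed a stretch of 44.7 kb, gaps included. The length-weighted fold over its called bases, gaps left out, was 4.90. The fourth stayed apart. Along the Flt3 window the mark therefore thinned out towards the 3′ side. The 5 bins nearest the 5′ side were 94.6% covered and the other 5 were 28.2% covered.

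Cd34 carried the strongest of the 6 regions, which reached past the 5′ bound of its window. The region ran from 196751466 to 196787525 on chromosome 1, a width of 36.1 kb, with a pileup of 128, a −log10 q of 91.8 and a fold of 9.14. Cd34 is transcribed towards higher coordinates. The region spanned from position -11.53 kb, outside the window, to 24.52 kb inside it, and 68.0% of it lay in the window. In the list 3.51% of peaks had a fold as high (3.25% to 3.78%) and 2.10% a pileup as high (1.90% to 2.31%).

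Unlike the strong regions at Kit and Flt3, that at Cd34 was also high for its width. Among the 3202 peaks of 0.5 to 2 times its width, whose median fold was 5.75, 11.9% had a fold as high (10.8% to 13.1%) and 7.03% a pileup as high. The Cd34 and Flt3 regions were nearly equally wide, with a ratio of 1.03, so their folds can be set side by side at the same width. The whole Cd34 region, part of which lay outside the window, had 1.70 times the fold and 1.94 times the pileup of the strongest Flt3 region. Against Kit it had 1.42 times the fold and 1.68 times the pileup over 0.559 times the width.

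The control background that pileup and fold imply was not equal under these regions. Computed from pileup and fold, on the assumption that MACS2 adds 1 to both before it divides, it was 11.1 at Kit, 11.5 under the strongest Flt3 region and 13.2 at Cd34, where the list median was 11.2. The background at Cd34 was 1.19 times that at Kit and 1.14 times that at Flt3. Since this background is derived from pileup and fold, its ratios only restate that the lead of Cd34 was smaller in fold than in pileup.

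**Figure D3:**
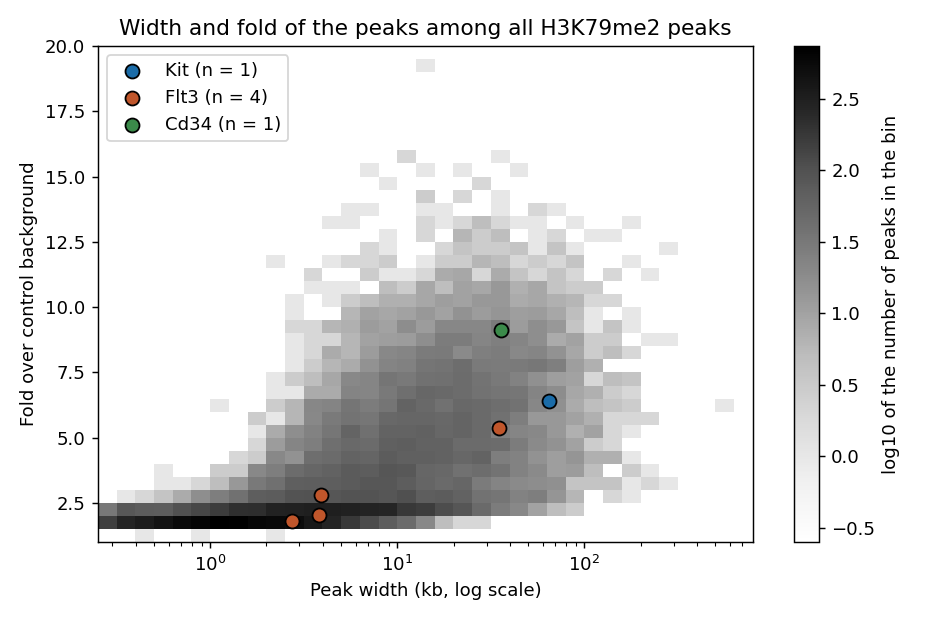
All 18992 peaks binned by width (horizontal axis, kb, log scale) and fold over the control background (vertical axis), darker bins holding more peaks, with the 6 regions at Kit, Flt3 and Cd34 as coloured points. Of the 3 weaker Flt3 regions, those of 1.80-fold and 2.06-fold sit in the dense low band and that of 2.81-fold just above it. The Kit region and the strongest Flt3 region lie amid the wide peaks, and the Cd34 region near their upper part.

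Most of each window as drawn was covered when every peak was counted. Peaks held 75.0% of the 86.0 kb Kit window, 61.4% of the 74.0 kb Flt3 window and 90.8% of the 27.0 kb Cd34 window. The Flt3 share was 47.3% with −log10 q from 10 upwards and 48.3% with the window widened by 10 kb on each side. The comparison that follows uses the shares with every peak counted. For comparison, the span of each chromosome from first to last peak was cut into consecutive windows of the same widths. A peak was present in 29.3% of windows as wide as that of Kit, and 2.16% were covered as fully. At the width of the Flt3 window 27.6% held a peak and 4.10% were covered as fully, and at the width of the Cd34 window the shares were 18.7% and 3.17%. Among windows that held a peak, the median share covered was 22.8% at the Kit width, 24.7% at the Flt3 width and 40.4% at the Cd34 width. The 3 receptor windows were drawn around genes, whereas the consecutive windows include sequence with no gene, so the shares describe the genome and not other genes.

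In the Kit and Flt3 windows coverage was fuller on the 5′ side. In Cd34 the first 9 of 10 bins were fully covered and the last at 8.34%, so any contrast between its sides rests on the last 2.48 kb before a bound that is not a checked gene end. With the windows narrowed by 3 kb on each side Cd34 was 100% covered. In Kit bins 2 to 7 were full, and in Flt3 bins 2 to 4. Flt3 alone of the 3 had a bin at 0 followed by a marked one, bin 8 being empty and bin 9 at 50.4%.

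**Figure D4:**
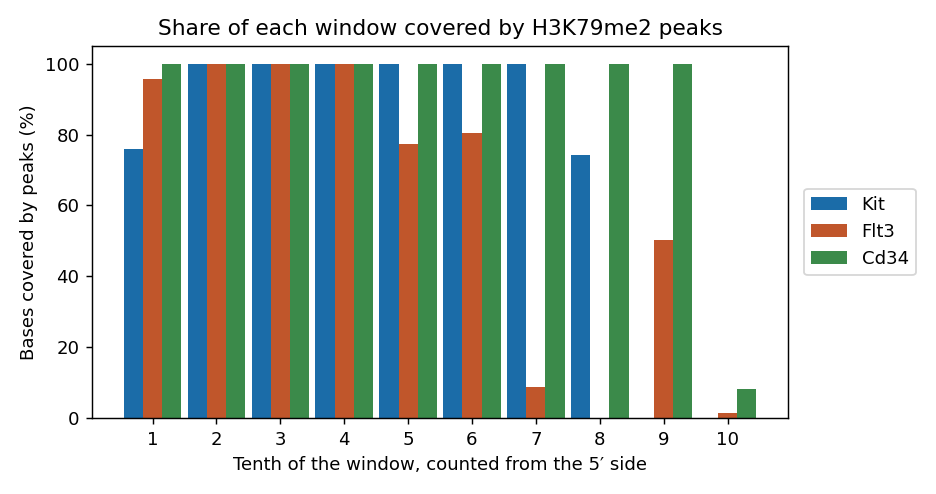
Share of bases covered by peaks (vertical axis, percent) in 10 equal bins of each window counted from the 5′ side (horizontal axis), with 1 bar for each of Kit, Flt3 and Cd34. Coverage falls off latest in Cd34, ends after bin 8 in Kit and is broken in Flt3, where bin 8 is empty and bin 9 is 50.4% covered.

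The loci differed in their surroundings. The Kit region stood alone. The nearest peak on the 5′ side ended 531 kb before it and was 40.1 kb wide with a fold of 6.62, and the nearest on the 3′ side began 534 kb after it and was 6.15 kb wide with a fold of 2.78. No other peak lay within 500 kb of the window. The next protein-coding genes to Kit in the RefSeq table of GRCm38.p6 are Pdgfra, a receptor kinase of the same class, below it and Kdr, a receptor for vascular endothelial growth factor, above it. Their positions in mm9 were not used here, so which peaks or empty stretches belong to them was not determined.

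Such isolation was rare for a region as wide as that of Kit. Of the 1694 peaks of 0.5 to 2 times its width, 8 had their nearest other peak as far away, Kit included, or 0.472%. The median distance among them was 3.15 kb. Among the 5571 regions that reached 4-fold, 43 were as far from the next, or 0.772%. This comparison was chosen after the distances had been seen and is a description.

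**Figure D5:**
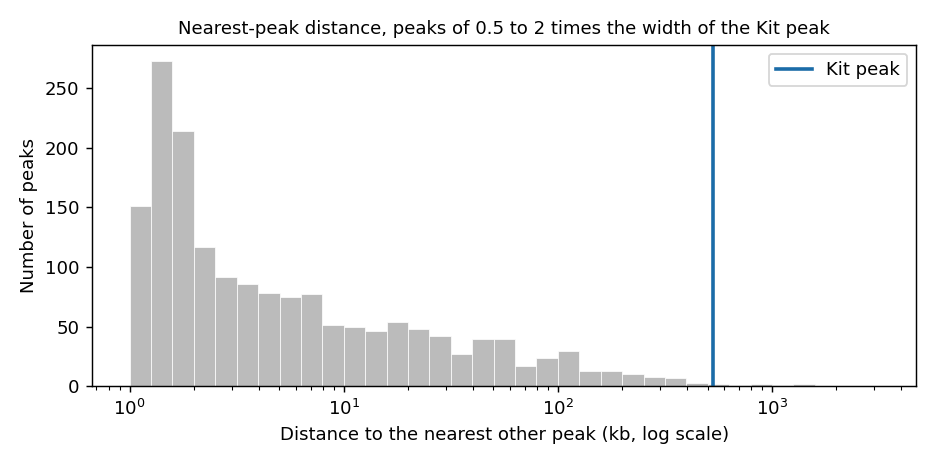
Number of peaks (vertical axis) by the distance to the nearest other peak (horizontal axis, kb, log scale) for the 1694 peaks of 0.5 to 2 times the width of the Kit region, with a line at Kit. The peaks gather at short distances, with a median of 3.15 kb, and Kit, at 531 kb, lies in the far tail.

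Flt3, by contrast, lay next to a much larger marked region. The nearest peak on its 5′ side ran from 148230253 to 148360537, only 16.6 kb from the strongest Flt3 region. It was 130 kb wide, a width reached by 76 peaks or 0.400% of the list, and its fold of 8.57 was above that of any region at Flt3. On the 3′ side the nearest peak lay 225 kb beyond the last Flt3 region. The next protein-coding genes on the 5′ side of Flt3 in the RefSeq table are Pan3, a subunit of the deadenylase complex that shortens mRNA tails, and then Flt1, another receptor for vascular endothelial growth factor.

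Cd34 had marked sequence on both sides at moderate distance. On the 5′ side the nearest peak, 3.07 kb wide with a fold of 2.02, lay 20.2 kb away. On the 3′ side a region of 31.7 kb with a fold of 3.64 began 15.5 kb after the Cd34 region, followed after 1.34 kb by one of 11.7 kb with a fold of 2.47. The Cd34 region thus had the highest fold of its immediate surroundings, whereas Flt3 stood beside a stronger region. The adjoining protein-coding genes in the RefSeq table are Plxna2, a semaphorin receptor, on the 5′ side and Cd46, a regulator of complement, on the 3′ side.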

How the data were processed

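Chromatin immunoprecipitation with an H3K79me2 antibody (3 libraries) and input (3 libraries) were told apart by title. The build was mm9 and the tools were MACS2, GSNAP, SAMtools, CASAVA 1.8.2 and bedtools 2.25.0, per the submitters' processing notes, which state no settings in the form used here. Per the file header, the deposited pileup is a coverage signal of the combined libraries, the fold enrichment is the authors' ratio over control background, and the deposited −log10 q (like the −log10 p, not used) is that of the peak caller. Whether the pileup was scaled, how many reads lie behind it, and whether pileup and fold are averages over a region are not stated there, so a wide peak may have a higher part within it.

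Peaks overlapping a window by at least 1 bp were taken. Bins were counted from the 5′ side, with strand from RefSeq. Ranks carry exact (Clopper-Pearson) 95% intervals, which treat peaks as independent draws although each rank is a full count within 1 list. Peaks are not replicates, so the intervals cover no spread between libraries. The windows, motifs and comparisons were chosen with earlier results of these data known. All peaks in the windows and the nearest on each side are named. Receptor ligands, signalling genes and related proteins were not analysed here, for want of an mm9 annotation and protein sequences. Coverage, joining and motif search were tested on simulated data. Python 3.11.15, numpy 2.4.6, pandas 2.3.3, scipy 1.17.1 and matplotlib 3.10.9 were used.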

Additional observations from a re-analysis of the deposited data

How the results depend on the processing

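No paired analysis was possible because peaks were called over combined libraries, and for the same reason no replicate could be left out. The highest folds at Kit and Cd34 were unchanged under all 8 settings tried. This was fixed beforehand and is no check on their strength. Both regions pass every threshold and stay in every window, and no other peak was near enough to enter or join. The highest fold at Flt3 was fixed likewise except under joining of peaks at most 3 kb apart. There it fell to 4.90, a mean over the called bases of the joined stretch without its gaps. The 6 member regions became 3, 1 at each gene, when a fold of at least 4 or a −log10 q of at least 10 was asked for. Covered shares depended on window bounds and, at Flt3, on its weaker peaks. The Flt3 share of 61.4% was 52.5% with −log10 q from 5 upwards, 47.3% with −log10 q from 10 upwards and likewise with folds from 4 upwards. It was 65.6% after joining, which counts the gaps as covered. With windows widened by 10 kb on each side the shares were 60.8% at Kit, 48.3% at Flt3 and 73.5% at Cd34. Narrowed by 3 kb on each side, a setting chosen after seeing the data, they were 79.5%, 62.9% and 100%. The order Cd34, Kit, Flt3 held in each of these settings. Ranks depended on the peaks compared. The percent of peaks with a fold as high as the strongest region was, on the same chromosome, 15.7% for Kit, 22.0% for Flt3 and 3.12% for Cd34. Among peaks with a −log10 q of at least 10 it was 36.6%, 53.3% and 9.62%, and among peaks of 0.5 to 2 times its width 48.8%, 54.5% and 11.9%. Ranked by pileup, Kit stood at 15.2% and Cd34 at 2.10%. The lowest pileup among the called peaks was 19.0, and weaker marking was not examined.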

Other observations

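Within 500 kb of each window the amount of other marked sequence differed widely. Around Kit there was no other peak, and its own region made up all of the 5.94% of the window and flanks that was covered. Around Flt3 there were 10 other peaks, 5 of them with a fold of at least 4, which together with its own covered 30.2%, and the Flt3 regions made up 14.0% of the covered bases. Around Cd34 there were 7 other peaks, 1 of them with a fold of at least 4, the covered share was 10.98%, and the Cd34 region made up 32.0% of it. Kit thus had the least and Flt3 the most marked sequence around it.

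The marked surroundings of Cd34 ended on the 5′ side with a peak 1.57 kb wide, from 196706222 to 196707789, with a fold of 1.93. The next peak below that lay 1655 kb away. On both sides of the Kit region the empty stretch was longer than most in the list, where 5.07% of gaps between neighbouring peaks were as long as the lower and 5.05% as long as the upper one, against a median gap of 9.01 kb. Whether reads were placed in such stretches is not shown by a list of peaks.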
